A study of Brassica napus with 6 samples.

Results

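The genes described here are the 2 copies of ELIP1, the early light-induced protein gene, among 3248 genes that the authors called different between silique walls of long- and short-silique rapeseed (Brassica napus). Both rows carry the Arabidopsis locus AT3G22840 and the description "early light-induced protein 1, chloroplastic". They were picked by gene ID because of their large difference between the pools, so their levels in the pools are given as a description, with no test. BnaA05g16860D lies on A05 (11607311 to 11608604) and BnaC05g29670D on C05 (28491576 to 28492928), in the coordinates of the authors' table. Other ELIP genes of rapeseed were not analysed here.

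Rapeseed is an allopolyploid that carries an A and a C subgenome, so many Arabidopsis genes have an A and a C copy on matching chromosomes, called homoeologs. The tissue was the pod wall (silique wall), harvested 15 days after flowering. The long silique pool mixed walls of 12 accessions and the short silique pool walls of 11 other accessions, all lines of an association population without a named treatment, and each pool gave 3 libraries. The labels do not say whether each library of a pool is its own mixture of plants, and p-values here rest on the spread among these libraries alone, which may be technical. The recovered library totals lay between 22892442 and 30259269 reads. In bulk tissue, fewer cells of a type and less RNA per cell cannot be told apart.

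ELIPs are nuclear-encoded proteins of the chloroplast's thylakoid membrane and belong to the family of light-harvesting chlorophyll-binding proteins. They bind pigments and are known for being switched on briefly when dark-grown seedlings turn green and when green tissue meets strong light, UV-B or cold. They are thought to protect the photosynthetic apparatus by holding free chlorophyll or by quenching its excess energy. In Arabidopsis their induction by light runs through photoreceptors and the transcription factor HY5. The wall of the young silique is green and photosynthetic.

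The A05 copy was abundant in the short pool and nearly silent in the long pool. BnaA05g16860D had 704, 835 and 1086 counts in short silique replicates 1, 2 and 3, and 9, 7 and 19 counts in long silique replicates 1, 2 and 3. Every short library stood far above every long library, and the groups did not overlap. Such separation was the rule in this table, where 95.3% of all listed genes had pools that did not overlap and 62.2% had every long library below every short one. Scaled to length and depth, the deposited FPKM were 41.67, 43.05 and 60.42 in the short libraries and 0.53, 0.35 and 1.25 in the long libraries. The mean level was 48.38 ± 10.4 FPKM (SD, n = 3) in the short pool and 0.710 ± 0.476 FPKM (SD, n = 3) in the long pool. The summed counts, scaled to the library totals, were 72.3 times as high in the short pool (95% exact counting interval 51.8 to 104, which covers counting error only). The authors' deposited table puts it at -5.98 as log2 of long over short. By mean FPKM in the short pool it ranked 19 of 3248 listed genes, and by mean FPKM in the long pool 1741.

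The C05 copy was not detected in the long pool at all. BnaC05g29670D had 191, 361 and 478 counts in short silique replicates 1, 2 and 3 and 0 counts in each long library. Its deposited FPKM were 9.54, 15.7 and 22.43 in the short libraries, with a mean of 15.89 ± 6.45 FPKM (SD, n = 3). Taking 3 counts summed over the long libraries as the floor, it was at least 331-fold lower in the long pool. Without long silique replicate 2 this bound was 204, because less depth is left in the long pool. The authors' deposited table gives a log2 fold change of -7.33, the fourth lowest in that table. No reads in any long library were found for 5.02% of the listed genes (163 genes), and among those the C05 copy ranked 1 by reads and 3 by mean FPKM in the short pool.

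**Figure D1:**
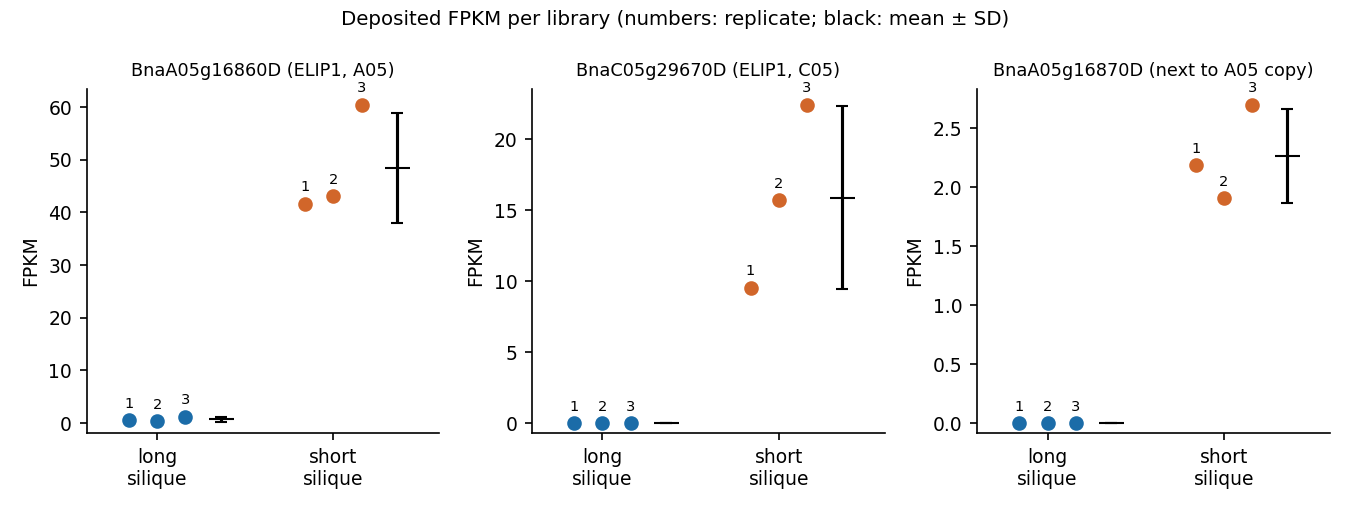
Deposited FPKM (y axis, linear) of both ELIP1 copies and of the listed gene next to the A05 copy, in long (blue) and short (orange) silique libraries; each point is 1 library with its replicate number, and the black mark is the mean ± SD of 3 libraries. The short libraries lie between 41.67 and 60.42 FPKM for the A05 copy and between 9.54 and 22.43 FPKM for the C05 copy, while the long libraries reach at most 1.25 FPKM and 0 FPKM.

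The copies are similar but not equal in length. Dividing counts by FPKM and library total gave a transcript length of 663 bases for the A05 copy and 786 bases for the C05 copy, within spans of 1294 and 1353 bases. Per length, the A05 copy was the more abundant copy in every short library. Its FPKM was 4.37 times that of the C05 copy in short silique replicate 1, 2.74 times in replicate 2 and 2.69 times in replicate 3. Both copies together stood at 64.3 ± 16.5 FPKM (SD, n = 3) in the short pool and 0.710 ± 0.476 FPKM (SD, n = 3) in the long pool. Only uniquely mapped reads were used by the authors, so reads that match both copies equally would be lost from both, and how such reads fall on the copies was not tested.

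The balance between the copies was not the same in all short libraries. The A05 copy took 78.7% of the 895 reads of both copies in short silique replicate 1 (95% Clopper-Pearson interval 75.8 to 81.3, counting error only). It took 69.8% of 1196 reads in replicate 2 (67.1 to 72.4) and 69.4% of 1564 reads in replicate 3 (67.1 to 71.7). The interval of replicate 1 did not overlap the others, but such intervals leave out the spread between libraries, and with 3 libraries no test of replicate 1 was made. Both copies were lowest in replicate 1 and highest in replicate 3, and the C05 copy varied more. On the log2(CPM + 1) scale, with CPM the reads per 1e6 reads of the library total, its level in replicate 1 differed from the mean of the other short libraries by -0.91, and 0.777% of the 2574 genes that passed the filter on low counts had a value as low. The A05 copy differed there by -0.30, which 14.9% of genes reached, and the median gene differed by -0.00. In replicate 3 the C05 copy differed from the mean of the other short libraries by 0.77, with 99.7% of genes at or below that value, and the A05 copy by 0.50, with 97.2% at or below. This scale shrinks the differences of genes with few reads, and the copies were not set against genes of like level alone.

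In the long pool all 35 ELIP1 reads fell on the A05 copy. With 0 of 35 reads, the share of the C05 copy is at most 10.003% (95% Clopper-Pearson upper bound), or 8.57% by a floor of 3 counts, both covering counting error only. In the short pool the C05 copy held 28.2% of the reads of both copies. If the copies had kept the balance of the short pool, the 35 reads of the A05 copy would have come with 13.7 reads of the C05 copy. These are the values by which the copies were chosen, so whether the balance differed between the pools was not tested. Of the 35 reads, 19 came from long silique replicate 3, the smallest long library.

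**Figure D2:**
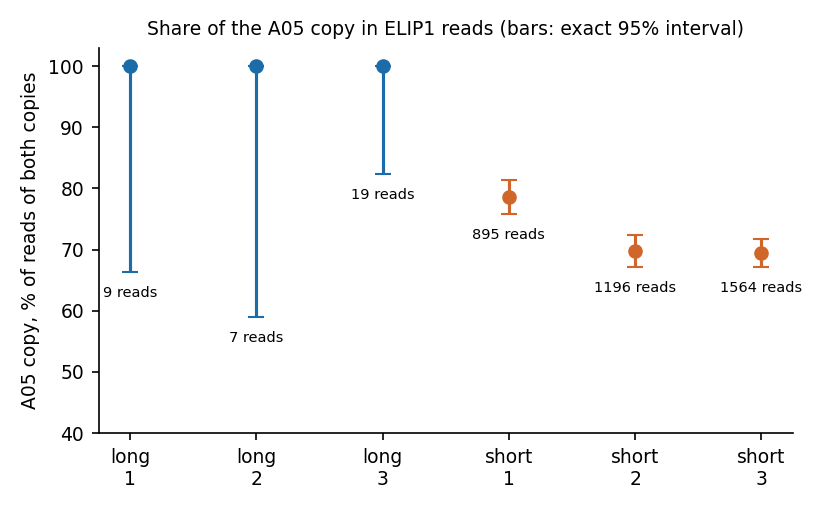
Share of the A05 copy in the reads of both ELIP1 copies (y axis, percent, starting at 40) for each library, with exact 95% intervals and the number of reads. The short libraries (orange) lie at 78.7%, 69.8% and 69.4% with narrow intervals, and the long libraries (blue) at 100% with wide ones because they hold 9, 7 and 19 reads.

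Long silique replicate 3 was often the highest long library among genes that were far lower in the long pool. Genes were examined that passed the test as lower, had a log2 fold change of at most -3 and had at least 10 counts over the long pool, a choice made after seeing the values. Of these 47 genes, 24 were highest in replicate 3, 13 in replicate 1 and 10 in replicate 2. The A05 copy of ELIP1 is itself 1 of the 47 and of the 24. Among all 910 genes called lower with at least 10 such counts, the A05 copy again included, the share highest in replicate 3 was 39.6%. Without replicate 3 the log2 ratio of the A05 copy, long over short mean CPM, went from -6.09 to -6.79.

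The gene next to the A05 copy showed the same pattern. BnaA05g16870D (A05, 11609993 to 11611337) is separated from the end of BnaA05g16860D by 1388 bases and is the next gene model by number. It had 29, 29 and 38 counts in short silique replicates 1, 2 and 3 and 0 counts in each long library. All short libraries were therefore above all long ones. With the same floor it was at least 30.8-fold lower in the long pool. It passed the test (edgeR quasi-likelihood test, adjusted p = 0.000125), as did 43.5% of all tested genes in this direction. It passed the filter on low counts only through the short pool and was listed because the pools differed. Its test is therefore no independent evidence. The table gives it no Arabidopsis locus, and its closest protein is a hypothetical one of Eutrema salsugineum, a related crucifer. Per length it was far below ELIP1, with 2.27 ± 0.401 FPKM (SD, n = 3) in the short pool.

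Reads of this neighbour stood in a similar ratio to those of the A05 copy in each short library. They amounted to 4.12%, 3.47% and 3.50% of the A05 counts in short silique replicates 1, 2 and 3. These ratios rest on only 29, 29 and 38 reads of the neighbour, and other genes were not compared in this way. At the pooled 3.66%, the 35 A05 reads of the long pool would come with 1.28 reads of the neighbour, so its 0 counts there cannot be told from the same proportion. The table gives no strand for these genes. Whether reads of one gene were counted for the other was not tested.

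No other listed gene lay within 100 kb of the A05 copy. Within 1 Mb the table lists 5 genes, 4 of them lower in the long pool by the authors' deposited values. The exception, BnaA05g17000D, encodes a proteasome subunit, carries the Arabidopsis locus AT3G22630 and was higher by 1.23 ± 0.23 on the log2 scale (SE; edgeR adjusted p = 0.00444). It is named because of its position, after its value was seen. Around the C05 copy the table lists 0 genes within 1 Mb. On the whole, 83 of 115 listed A05 genes and 90 of 127 listed C05 genes were lower, beside 2132 of all 3248 listed genes. Of 375 adjacent listed pairs less than 10 kb apart, 318 shared a direction (84.8%). As most listed genes were lower, genes far apart would often share a direction as well.

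**Figure D3:**
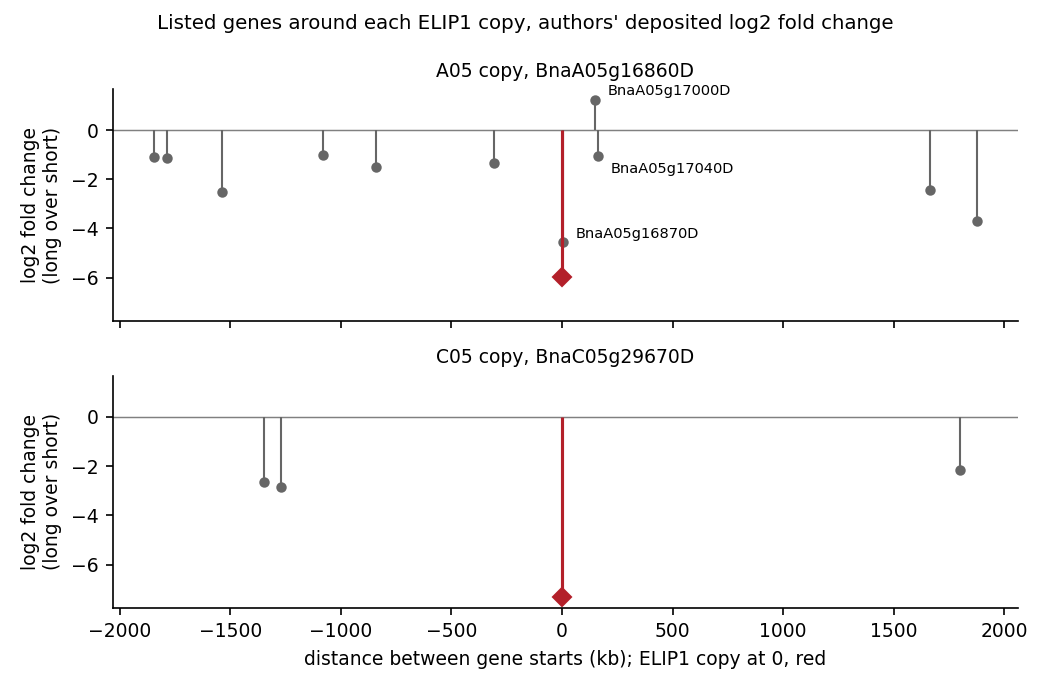
Authors' deposited log2 fold change, long over short (y axis), of the listed genes around each ELIP1 copy, plotted against the distance between gene starts in kb (x axis); the ELIP1 copy is the red diamond at 0. Next to the A05 copy at -5.98 stands BnaA05g16870D at -4.56, and the closest gene beyond it, BnaA05g17000D, is higher at 1.24, whereas no listed gene is near the C05 copy at -7.33.

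Beside other loci with an A and a C row, ELIP1 was a concordant pair with a large change. The table holds 145 Arabidopsis loci with exactly 1 A and 1 C row, 47 of them on chromosomes of the same number like ELIP1. Whether the rows of each pair are homoeologs was not tested. By the authors' deposited log2 fold changes, both copies moved the same way in 130 of the 145 pairs (89.7%). A pair enters only if the authors called both copies different, so loci with just 1 called copy are left out. In 112 of them both were lower in the long pool. By these values 2132 of all 3248 listed genes were lower, so unrelated genes would often share a direction too. Both copies were at -4 or below in 1 pair, which is ELIP1, and at -3 or below in 2 pairs. The other pair is that of AT5G45890, described as the cysteine protease vignain, with deposited values of -4.02 for BnaA02g24130D and -3.61 for BnaC02g31910D. The copies of ELIP1 differed by 1.35 on that scale, against a median of 0.280 over all pairs, and 19 pairs differed more. In 3 of the 145 pairs, ELIP1 included, just 1 copy had no reads in any long library, and in 0 pairs both had none.

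**Figure D4:**
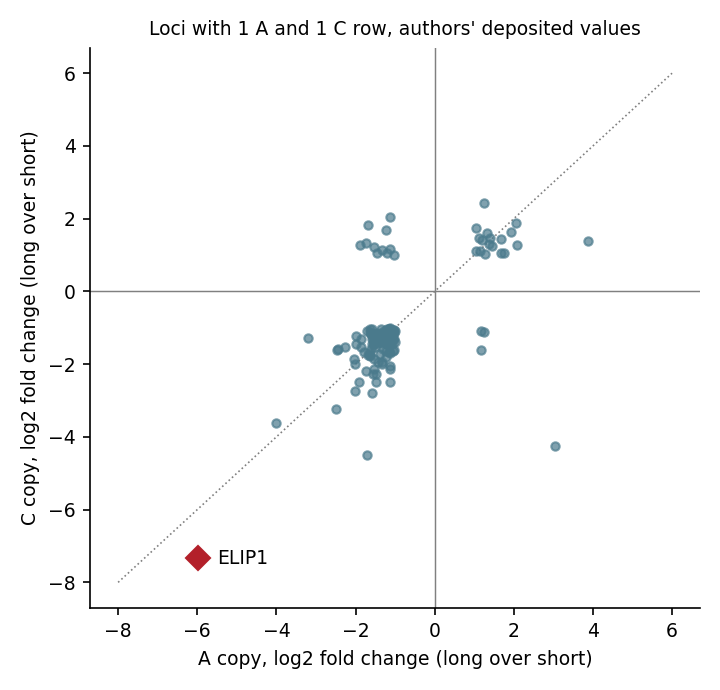
Authors' deposited log2 fold change of the C copy (y axis) against that of the A copy (x axis) for 145 Arabidopsis loci with 1 row of each; the dotted line marks equal values. ELIP1 (red diamond, -5.98 and -7.33) lies at the lower left, apart from the cloud of pairs, most of which lie between -1 and -3 on both axes.

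Each copy was also compared with all listed genes by the Euclidean distance of log2(CPM + 1) over the 6 libraries, which weighs level as well as shape. Nearest to the A05 copy was BnaA04g05640D (SEC12-like protein 1, which helps phosphate transporters leave the endoplasmic reticulum; distance 1.49), with 507, 441 and 575 counts in the short and 6, 11 and 4 in the long libraries. Next came BnaCnng51680D (tubulin alpha-6; 2.08), BnaC05g49170D (no description; 2.17), BnaA09g55520D (the homeobox protein ATHB-12; 2.19) and BnaAnng14350D (no description; 2.32). Nearest to the C05 copy was BnaA05g24740D, a probable leucine-rich repeat receptor kinase (0.735), with 286, 436 and 352 counts in the short and 2, 1 and 2 in the long libraries. It was followed by BnaA09g29670D (locus AT4G17240; 0.99997), BnaA07g02370D (an exopolygalacturonase, which cuts pectin; 1.12), BnaC05g49170D (1.29) and BnaA03g53280D (no description; 1.303). None of these 9 genes is described as a light or chloroplast gene. The copies themselves were 2.59 apart, so the C05 copy ranked 7 among the genes nearest to the A05 copy and the A05 copy ranked 39 the other way.

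Other light and chloroplast genes serve as context. The 7 lists by Arabidopsis locus, 2 of which had no row besides ELIP1, together with a search for chloroplast or light in the descriptions and the table's own class for light signalling, gave 135 listed genes apart from ELIP1. Of these, 112 passed the filter and were tested, 35 were called higher and 47 lower in the long pool. Over all tested genes, 66.6% were called, 23.1% higher and 43.5% lower. The median log2 fold change of the 112 genes was -1.16 and that of all 2574 tested genes -1.22. The table holds genes because they differed between these same libraries, so testing them again is no independent evidence. TMM scaling turned the split to 47 higher and 8 lower, as it raised the log2 fold changes of all genes by a median of 0.77. Lower calls numbered 26 without long silique replicate 1 and 29 without replicate 2, and higher calls 21 without replicate 2.

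Light receptors and light signalling held 9 listed genes, 8 of them tested, with 1 called higher and 4 lower. HY5 (BnaCnng20200D), the transcription factor that promotes light responses, was higher in the long pool. Its counts were 284, 313 and 327 in the long and 125, 120 and 113 in the short libraries, and the log2 difference was 1.44 ± 0.21 (SE; edgeR adjusted p = 0.000577). The direction of this HY5 copy was thus opposite to that of ELIP1. Phytochrome A (BnaC08g42660D), a far-red light receptor, had 70, 60 and 63 counts in the long and 307, 245 and 205 in the short libraries. The long libraries were all lower, at -1.91 ± 0.25 on the log2 scale (SE; edgeR adjusted p = 0.000242). HFR1 (BnaA09g51400D), which acts in phytochrome and shade signalling, was lower at -1.17 ± 0.20 on that scale (SE; edgeR adjusted p = 0.00214), a call lost under TMM scaling (-0.40) and under DESeq2 size factors (-0.25). The other called genes of this list were a second HFR1 copy and GLK1, an activator of chloroplast genes. UVR8, the UV-B receptor, was listed with too few reads to be tested. In the class for light signalling, looked at after the table was seen, 1 of 9 tested genes was called higher and 7 lower. Phytochrome A and both HFR1 copies are in this class as well as in the list, so these counts overlap. Over all tested genes, 23.1% were called higher and 43.5% lower.

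The few listed genes of the photosynthetic apparatus went both ways. Of the list of antenna, photosystem and Rubisco genes, 3 of 50 loci were in the table, with 2 rows tested. The other loci had no row among the genes that the authors called different. LHCB1.1 (BnaC07g09400D), a chlorophyll-binding antenna protein of the family to which ELIPs are related, had 6542, 6738 and 5354 counts in the long and 2604, 4397 and 2333 in the short libraries. All long libraries were above all short ones, by 1.07 ± 0.18 on the log2 scale (SE; edgeR adjusted p = 0.00236). Its copies are near-identical, and only uniquely mapped reads were used, so reads that match several copies equally would be lost from its counts. PSAF (BnaCnng19490D), a subunit of photosystem I, had 3, 3 and 19 counts in the long and 197, 232 and 113 in the short libraries, again with long silique replicate 3 the highest of its pool. The log2 difference was -4.31 ± 0.63 (SE; edgeR adjusted p = 0.00565). PSAF passed the filter on low counts only through the short pool. The plastocyanin gene PETE2 (BnaC07g15470D), which carries electrons to photosystem I, had 2 to 5 counts in the long and 8 to 13 in the short libraries and was not tested. Of the 12 loci of ELIPs and related proteins only ELIP1 was in the table, and of the 26 loci of chlorophyll synthesis and breakdown 0 were.

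In the remaining lists, few genes passed the test. Of the photoprotection and carotenoid genes, LUT5 (BnaAnng32280D), a carotenoid hydroxylase, was higher by 1.48 ± 0.30 (SE; edgeR adjusted p = 0.00805), a call lost when long silique replicate 1 (then 1.43) or 3 (then 1.28) was left out. ZEP (BnaC08g48380D), which converts zeaxanthin to violaxanthin, stood at -1.35 ± 0.38 on the log2 scale (SE) and missed the threshold (edgeR adjusted p = 0.0841), but passed it at -1.57 when short silique replicate 2 was left out. Of the flavonoid genes that respond to UV-B and blue light, CHI (BnaA09g34850D) had 9, 10 and 7 counts in the long libraries and 0 in each short one. It was at least 8.99-fold higher and was not tested. F3H (BnaA04g04230D) stood at a log2 difference of -1.92 ± 0.55 (SE; edgeR adjusted p = 0.10001).

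Cold and high-light responsive genes numbered 7 in the table, with 6 tested, 1 called higher and 3 lower. The shares over all tested genes were 23.1% higher and 43.5% lower. COR28 (BnaA01g03080D), a cold- and light-regulated gene, had 119, 248 and 35 counts in the long and 5, 4 and 14 in the short libraries (log2 difference 4.07 ± 0.72, SE; edgeR adjusted p = 0.0201). Leaving out long silique replicate 1 (4.101), short silique replicate 1 (3.89) or short silique replicate 2 (3.73) removed that call. COR28 passed the filter on low counts only through the long pool. The stress-induced zinc finger gene ZAT10 has 4 copies in the table, of which BnaC05g21480D (-1.19 ± 0.22, SE; edgeR adjusted p = 0.00399) and BnaA09g27780D (-1.22 ± 0.23, SE; edgeR adjusted p = 0.00437) had the smallest p. Neither call held under TMM scaling (-0.41 and -0.44), column sums (-0.83 and -0.86) or DESeq2 size factors (-0.26 and -0.28).

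Among all genes with chloroplast or light in their description, those with the smallest p included GPT2 (BnaA01g36280D), a glucose-6-phosphate carrier of the plastid envelope, higher by 1.80 ± 0.17 (SE; edgeR adjusted p = 8.02e-06). The splicing factor gene BnaA03g20900D (CRS2-associated factor 2) was higher by 3.65 ± 0.39 (SE; edgeR adjusted p = 3.92e-05). This gene passed the filter on low counts only through the long pool. BnaC02g22250D (Nudix hydrolase 21) was lower at -2.51 ± 0.28 (SE; edgeR adjusted p = 6.32e-05). BnaAnng25790D, described as a chloroplast protein kinase, had 73, 63 and 82 counts in the short and 0 in the long libraries, at least 70.0-fold lower (edgeR adjusted p = 6.78e-06). It passed the filter on low counts only through the short pool.

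**Figure D5:**
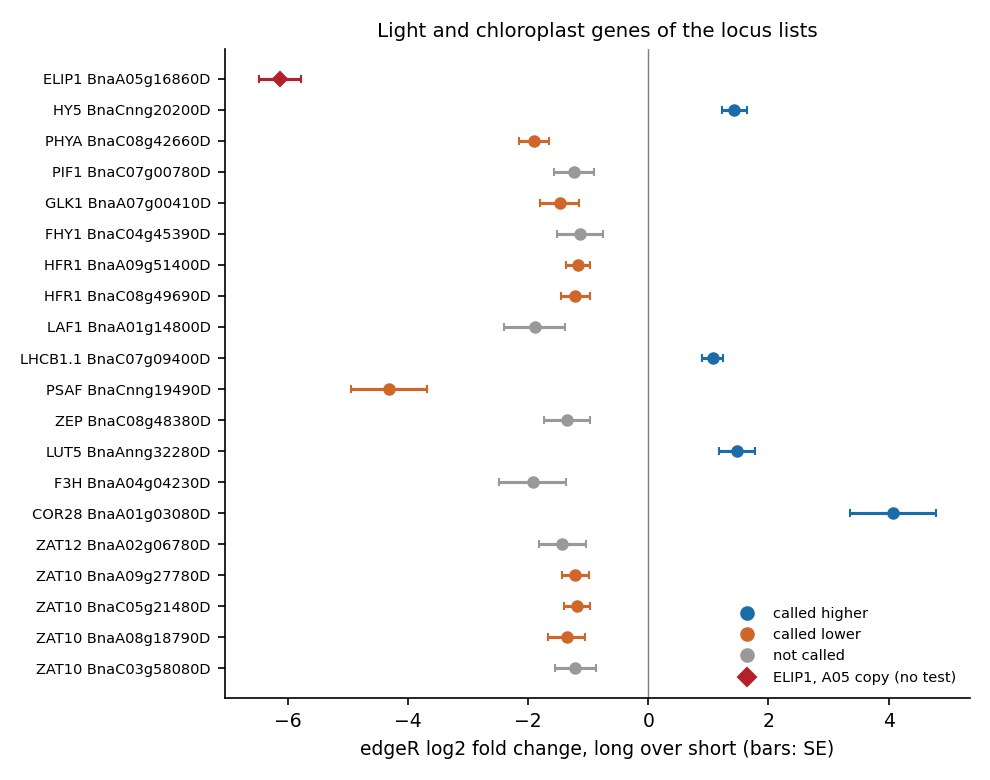
Fitted log2 fold change, long over short, with its SE (x axis) for each tested gene of the locus lists, coloured by call; the A05 copy of ELIP1 is the red diamond, shown without a test, and the C05 copy is left out because it has no reads in the long pool. Apart from PSAF at -4.31, the genes below 0 lie between -1.13 and -1.92, far to the right of ELIP1 at -6.13, and HY5, LHCB1.1, LUT5 and COR28 lie above 0.

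Each of the marker lists for seed, for petal and stamen, and for the fruit wall itself had 1 gene in the table, and CRD alone passed the test. Long libraries lay below all short ones for 62.2% of the listed genes. Of 14 seed loci 1 was in the table, the storage protein gene CRD (BnaA09g50780D), at 0 to 0.0661 CPM in the long and 1.85 to 4.12 CPM in the short libraries (edgeR adjusted p = 9.13e-06). CRD passed the filter on low counts only through the short pool. In short silique replicates 1, 2 and 3 CRD stood at 4.12, 1.85 and 4.09 CPM. There the A05 copy of ELIP1 stood at 27.6, 28.5 and 40.1 CPM and the C05 copy at 7.50, 12.3 and 17.6 CPM. Of 5 petal and stamen loci 1 was in the table, the floral gene PI (BnaA10g15180D), at 0.0330 to 0.194 CPM in the long and 0.308 to 0.432 CPM in the short libraries, with too few reads to be tested. Of 7 fruit wall and margin loci 1 was in the table, the YABBY gene FIL (BnaC03g25170D), at 0.496 to 0.743 CPM in the long and 0.785 to 1.91 CPM in the short libraries, and it was not called (edgeR adjusted p = 0.236). The other markers were not analysed here, and the part of other tissues in the ELIP1 difference was not tested.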

How the data were processed

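RNA-seq libraries of silique walls were grouped by their labels, 3 long and 3 short. Per the series design text, filtered reads were mapped to the Darmor genome and uniquely mapped reads quantified; the aligner is not given in the sources used here. Per the file headers, the authors deposited counts and FPKM of each library, with a log2 fold change, a p-value and an FDR for each gene, in 1 table of 3248 called genes; 59362 blank rows were left out. The submitters' processing notes name DESeq2 and edgeR without versions.

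Library totals were recovered from counts, FPKM and gene span (genes with at least 200 counts and 5 FPKM, values within 0.5% of the 95th percentile). The listed genes held 0.897% to 1.19% of these totals. Counts were tested on the whole table with the robust quasi-likelihood test of edgeR 4.0.16 in R 4.3.3. The filter filterByExpr kept 2574 genes. Both ELIP1 copies were kept. The C05 copy, like any kept gene with 0 counts in the long pool, passed only through the short pool. So did the A05 copy, PSAF, F3H and CRD, while COR28 and BnaA03g20900D passed only through the long pool. Tests of such genes are no independent evidence. Totals served as library sizes. Benjamini-Hochberg adjustment ran over 65264 genes, the number implied by the authors' p-values and FDR. A gene was called at an adjusted p of at most 0.05 and a p of at most 0.005. As only genes called different inform the spread, p-values may be too small.

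Members and lists were chosen with earlier results of these data known, and the light-signalling class was added after the table was seen. Named genes are all rows of a list with 4 or fewer, otherwise up to 2 higher and 2 lower called rows with the smallest p; listed genes within 100 kb of a copy; and the 5 nearest profiles of each. RefSeq symbols matched 96 gene IDs, neither of them an ELIP1 copy, so no sequence is shown. The fits were tested on simulated data. Figures were made with Python 3.11.15 and matplotlib 3.10.9, intervals with scipy 1.17.1, and DESeq2 1.42.0 was an alternative.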

Additional observations from a re-analysis of the deposited data

How the results depend on the processing

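No tested gene named changed direction in any alternative run. The main counts of calls were 594 higher and 1119 lower over all genes, and 35 and 47 over the light and chloroplast genes. TMM over the listed genes called 916 higher and 331 lower, and 47 and 8 of the light and chloroplast genes. DESeq2 with its own size factors called 914 and 254, and 47 and 6. Column sums called 818 and 679, and 44 and 23. Leaving out 1 library called 364 to 495 genes higher and 736 to 952 lower over all genes, and 21 to 30 and 26 to 42 over the light and chloroplast genes, with fewer samples. The bound on the fold of the C05 copy, 331, became 192 under TMM, 173 under DESeq2 size factors, and 204.0 to 391 when 1 library was left out. The log2 ratio of the A05 copy, -6.09, ranged from -6.79 to -5.76 when 1 library was left out, and was -5.34 under TMM, -5.75 under column sums and -5.20 under DESeq2 size factors. Among loci with 1 A and 1 C row, both tested, 100 of 111 pairs shared a direction. With at least 200 counts in both copies it was 47 of 55, which leaves fewer pairs. Same-numbered libraries of the pools were not treated as pairs in the main run. Their deviations correlated by 0.054, 0.0075 and 0.018, all near 0. Long silique replicate 2 and short silique replicate 3 correlated best with another number, and the other libraries with their own. Whether same-numbered libraries share a batch was not tested. With the replicate block 407 genes were higher and 821 lower, and 29 and 33 of the light and chloroplast genes. With a pseudocount of 0.1 4 of the 5 nearest profiles of the A05 copy and 3 of the 5 of the C05 copy were shared with the main list. Depth limits the C05 copy in the long pool, where 0 counts do not show absence.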
